A study of Mus musculus with 11 samples.

Results

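Antigen presentation genes load peptides onto the surface molecules that T cells read. Described here are 7 of them in mouse brain, namely Tapbp, Tap1, Tap2, H2-K1, H2-D1, B2m and Cd74. They were taken by symbol, as every probe set annotated to 1 gene whose name is on that list, which gave 14 of the 12488 probe sets on the array and 7 of 8252 genes with a probe set of their own. A probe set is a group of short probes read together as 1 value. RNA came from whole brains of 11 untreated C57BL/6J mice, with 1 array per mouse.

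In 5 of the mice both copies of the β4 nicotinic acetylcholine receptor subunit gene (Chrnb4) were null. Null replicates 1 and 2 were males of 9 weeks, null replicate 3 was a female of 7 weeks, and null replicates 4 and 5 were females of 8 weeks. The other 6 were wild-type littermates. Wild-type replicates 1, 2, 4 and 6 were males of 9, 8, 6 and 6 weeks, and wild-type replicates 3 and 5 were females of 7 and 6 weeks. Every null animal and wild-type replicates 1 to 3 carry animal numbers that begin with B4, and wild-type replicates 4 to 6 carry numbers that begin with LT. The labels do not say what these letters stand for. The array has 0 probe sets named for Chrnb4, so the genotype labels could not be checked against the targeted gene.

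In the class I pathway, fragments of proteins made inside a cell are pumped into the endoplasmic reticulum by a transporter built of Tap1 and Tap2. There tapasin, the product of Tapbp, holds the transporter next to an empty class I molecule until a fitting peptide is bound. The class I molecule itself pairs a heavy chain, such as the H2-K1 or H2-D1 product, with the light chain β2-microglobulin, the product of B2m. The class II pathway shows peptides from engulfed material instead, and Cd74, the invariant chain, occupies the class II groove until the molecule reaches the endosome. In a healthy brain class II is mostly a property of microglia and border macrophages, whereas class I transcripts are also found in neurons. Interferon raises the transcription of the whole class I pathway in many cell types.

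All tests used limma on log2 intensity with p-values adjusted over all 7453 probe sets bright enough to be tested, and an adjusted p under 0.05 was the threshold. Of the 14 member probe sets 12 were tested. Tap1 162278_r_at and H2-D1 97541_f_at had mean log2 intensities of 3.76 and 4.06, under the limit of 4.69, while H2-K1 97700_at lay just inside it at 4.70. The values are intensities on a linear scale that the authors made with MAS5, and every array had the same trimmed mean of 150.1. A probe set whose name ends in _f_at or _r_at may read related sequences, which matters for the class I heavy chains because they belong to a large family of near copies.

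The 2 male null arrays stood apart. Their ratio of Gapdh control intensity at the 3' end to that at the 5' end, a control for RNA integrity and for how far labelling reached along the transcript, was 0.859 and 0.798. It was 2.75, 2.19 and 3.58 in female null brains and 3.57 to 5.92 in wild-type brains. The mean ratio was 2.04 ± 1.21 in null brains (SD, n = 5) and 4.24 ± 0.862 in wild-type brains (SD, n = 6). Mean log2 ratios differed between genotypes with p = 0.00866 in an exact two-sided permutation test. The 2 male null arrays are of the only null males, so every genotype difference in males rests on them. Whether the ratio has a part in those differences was not tested.

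Tapbp read high in the male null arrays at 2 of its 3 probe sets. Probe set 100154_at read 179.8, 183.0, 67.6, 87.0 and 106.1 in null replicates 1 to 5, against a lowest, median and highest value of 62.2, 71.2 and 96.3 in wild-type brains. Both male null arrays lay above all the others, and the female null arrays ran through the wild-type range and just past it. The means were 125 ± 53.5 in null brains and 73.8 ± 12.6 in wild-type brains (SD, n = 5 and 6).

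A separate Tapbp probe set, 102689_at, read 143.5, 128.6, 31.9, 73.6 and 56.5 in null replicates 1 to 5, against 42.1, 48.0 and 63.8 (lowest, median and highest) in wild-type brains. Again the male null arrays were the highest of all, while female null replicate 3 was the lowest of all. The last Tapbp probe set, 162104_f_at, did not share this. It read 85, 85.8, 71.6, 91.1 and 92.5 in the null brains, against 52.7, 68.8 and 98.9 in wild-type brains, with every null array inside the wild-type range.

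The transporter genes showed no such pattern. Tap1 103035_at read 50.2, 33.7, 24.9, 25.5 and 25.6 in null replicates 1 to 5, against 26.8, 36.5 and 54.7 in wild-type brains. The female null arrays were the lowest 3 of the 11, close beneath the lowest wild-type array, and the male null arrays lay within the wild-type range. Tap2 102873_at read 17.8, 28.0, 16.3, 35.5 and 32.7 in null brains, against 20, 36.9 and 40.1 in wild-type brains, and the groups overlapped widely. The dim Tap1 probe set 162278_r_at, not tested, ranged over 9.4 to 23.6 in null brains and 7.5 to 27.6 in wild-type brains.

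B2m, the light chain shared by all classical class I molecules, ran the other way in males. B2m 93088_at read 366.2, 442.8, 483.4, 701.7 and 721.3 in null replicates 1 to 5, against 528.7, 668.4 and 888.1 in wild-type brains. The male null arrays were the lowest 2 of the 11, female null replicate 3 was the next lowest, and the remaining female null arrays lay in the wild-type range. Group means were 543 ± 160 in null brains and 696 ± 148 in wild-type brains (SD, n = 5 and 6).

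The heavy chain genes are given here with part of their promoters, since H2-K1, H2-D1 and B2m are textbook interferon targets and the first pair are near copies that the array can confuse. The stretches are from RefSeq (GRCm38.p6), 5′ to 3′ on the gene's own strand, and 5 of the 7 genes matched that table. Capitals mark matches to the core of enhancer A (GGGATTCCC), a motif of class I promoters, to the interferon-stimulated response element in its class I form (TTTCACTTC), or to a general core of that element (GAAANNGAA).
H2-K1: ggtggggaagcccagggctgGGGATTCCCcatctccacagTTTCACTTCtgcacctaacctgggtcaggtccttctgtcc
H2-D1: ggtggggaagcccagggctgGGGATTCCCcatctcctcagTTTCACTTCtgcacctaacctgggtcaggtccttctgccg
B2m: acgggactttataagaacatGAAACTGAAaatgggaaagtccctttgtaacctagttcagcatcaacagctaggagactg
The H2-K1 stretch lies at chr17:34000398-34000477 on the minus strand, the H2-D1 stretch at chr17:35262904-35262983 on the plus strand, and the B2m stretch at chr2:122147528-122147607 on the plus strand. The H2-K1 and H2-D1 stretches are the same at 77 of 80 bases. Counted back from the start, the enhancer A core begins at -110 in H2-K1, by the first-listed of its starts, and at -170 in H2-D1, and the response element begins at -90 and -150.

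Searched on both strands in the 250 bases before each start, with overlaps between motifs allowed, the enhancer A core was present in 99 of 32851 mouse promoters (0.301%). The class I form of the response element was present in 0.402% of them and the general core in 7.13%. Neither the Tapbp nor the Tap1 window held any of these motifs, and the Tap2 and Cd74 promoters were not analysed here. A match to letters is a description of the promoter and says nothing of what binds there. Tapbp, H2-K1, Tap1, Tap2 and H2-D1 follow each other in that order on chromosome 17, in the mouse major histocompatibility complex, while B2m is on chromosome 2 and Cd74 on chromosome 18.

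H2-K1 93120_f_at read 312.0, 285.4, 214.7, 266.9 and 259.5 in null replicates 1 to 5, against 214.4, 256.6 and 437.4 in wild-type brains. All null arrays fell within the wild-type range. The dimmer H2-K1 97125_f_at read 59.8, 58.1, 25.2, 18.9 and 17 in null brains, against 15.1, 39.5 and 64.1 in wild-type brains, with male null arrays near the top of the range and female null arrays near the bottom. H2-K1 97700_at read 56.5, 21.2, 50.2, 15.3 and 39.7 in null brains, against 13.0, 23.1 and 29.7 in wild-type brains, so that 3 null arrays of both sexes exceeded all wild-type arrays and the other 2 did not.

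H2-D1 101886_f_at read 347.7, 306.5, 118.6, 139.1 and 115.3 in null replicates 1 to 5, against 92.2, 134.6 and 204.9 in wild-type brains. The male null arrays stood well clear of all the others, and the female null arrays sat in the middle of the wild-type range. H2-D1 97540_f_at read 232.1, 205.1, 115.8, 125.7 and 158.6 in null brains, against 109.3, 139.7 and 246.6 in wild-type brains, and here wild-type replicate 5 exceeded both male null arrays. The untested H2-D1 97541_f_at read 12.4, 2.5, 22.5, 21.4 and 2.6 in null brains, against 21.4, 25.2 and 44.3 in wild-type brains, so this dim probe set ran lower in null brains where the bright ones did not. Of its null values, 2 lie under the floor of 3.1 set for the logarithm.

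A further probe set, 102161_f_at, lists H2-K1 and H2-D1 among 10 genes and was not used as a member. It read 200.7, 169.8, 78.6, 75.1 and 70.2 in null replicates 1 to 5, and 47.9 to 98.4 in wild-type brains. Its male null arrays were again the highest.

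Cd74 101054_at, for the class II invariant chain, had nearly equal means in both genotypes. It read 76.0, 66.9, 50.0, 66.8 and 69.2 in null replicates 1 to 5, against 49.1, 61.5 and 90.5 in wild-type brains. The means were 65.8 ± 9.6 in null brains and 64.9 ± 15.0 in wild-type brains (SD, n = 5 and 6), and the arrays overlapped throughout.

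**Figure D1:**
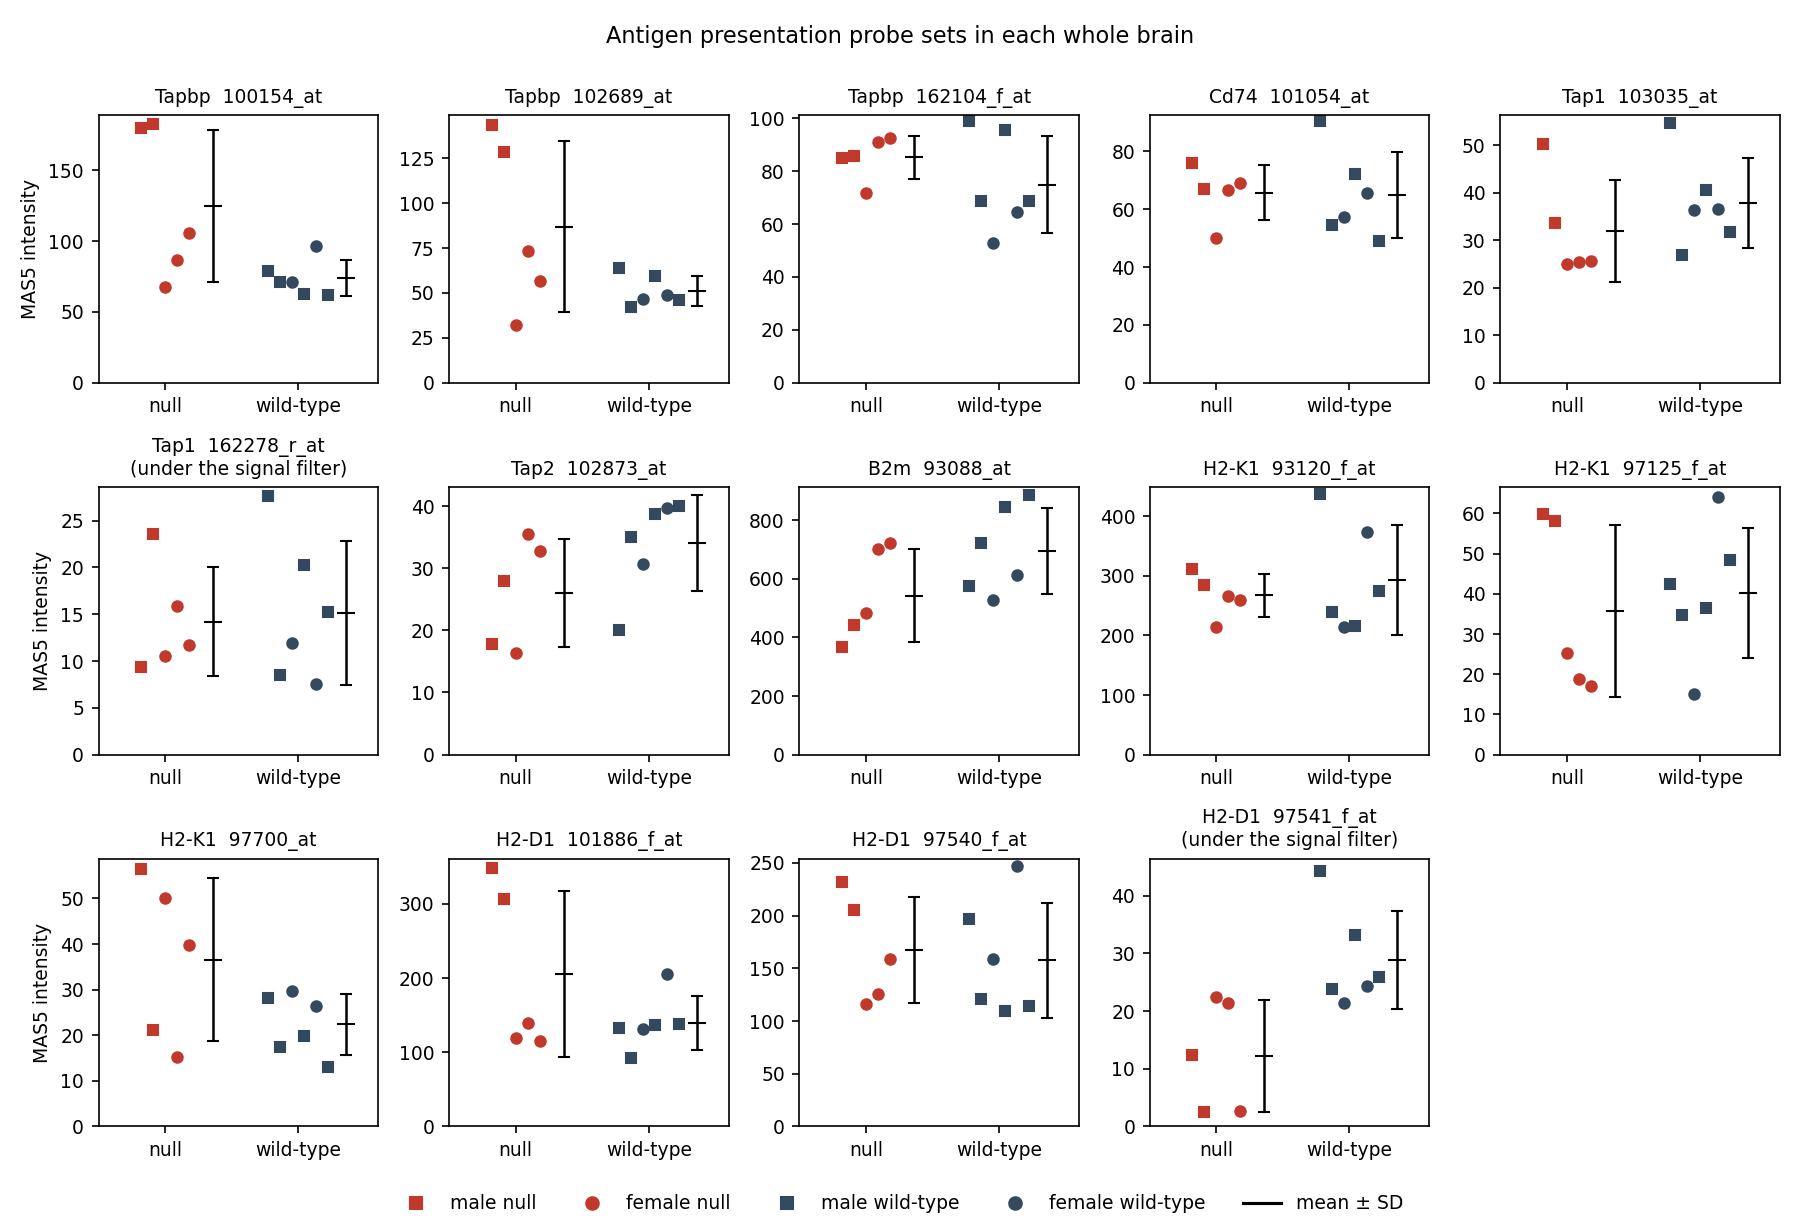
MAS5 intensity (linear, vertical axis from 0) of the 14 member probe sets in each brain, with null arrays left of wild-type arrays, squares for males, circles for females, and bars for the mean ± SD. The male null arrays lie above all others for Tapbp 100154_at, Tapbp 102689_at and H2-D1 101886_f_at and below all others for B2m.

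The first comparison asks how a brain that lacks the β4 subunit differs from a wild-type brain, with sex in the model. None of the member probe sets passed: limma called 0 of 12, where it called 0.0268% of all tested probe sets. At an unadjusted p under 0.05, 2 of 12 were higher and 0 lower, against 13.4% of all tested probe sets higher and 9.69% lower (23.1% in either direction). That balance depends on the scaling, as 1002 were higher and 722 lower here, 801 and 923 with quantile normalization, and 496 and 1572 with median centring. The nearest were Tapbp 100154_at, with a log2 difference of 0.76 (SE 0.25, adjusted p = 0.114), and Tapbp 102689_at, with 0.77 (SE 0.29, adjusted p = 0.147).

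H2-D1 101886_f_at had a log2 difference of 0.55 (SE 0.29, adjusted p = 0.276) and B2m one of -0.41 (SE 0.21, adjusted p = 0.252). The remaining members ran between -0.47 for Tap2 and 0.54 for H2-K1 97700_at, with Cd74 at 0.07 (SE 0.20, adjusted p = 0.846). The members' median was 0.09, with 7 higher and 5 lower, beside a median of 0.03 over all tested probe sets. For no tested member did the null and wild-type arrays fall into ranges that do not overlap, which 0.59% of tested probe sets did with null higher and 0.496% with null lower.

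Without the 2 male null arrays limma again called 0 of 12, as it called 0% of all tested probe sets, and 0 of 12 had an unadjusted p under 0.05 beside 3.54% of all. Tapbp 100154_at then differed by 0.05 and Tapbp 102689_at by 0.09, while H2-D1 101886_f_at turned to -0.40, H2-D1 97540_f_at to -0.58 and B2m to 0.13. Leaving out wild-type replicate 5, a female with high heavy chain readings, brought 2 members past the threshold, Tapbp 100154_at at 0.995 (adjusted p = 0.0277) and H2-D1 101886_f_at at 0.87 (adjusted p = 0.0457), and the number of all probe sets called then came to 877 in place of 2. Among the animals with B4 numbers alone, 0 of 12 passed beside 0.349% of all tested probe sets, and 3 of 12 had an unadjusted p under 0.05 beside 24.7%.

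The genotype difference was then taken within each sex in 1 model. Within females (3 null, 2 wild-type) limma called 0 of 12 members and 0% of all tested probe sets. With unadjusted p under 0.05 there were 2 members, Tapbp 162104_f_at at 0.53 and H2-D1 97540_f_at at -0.58, beside 4.13% of all. Differences in females were 0.05 for Tapbp 100154_at, -0.53 for Tap1, -0.39 for Tap2, 0.13 for B2m and -0.40 for H2-D1 101886_f_at.

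Within males (2 null, 4 wild-type) 5 of 12 member probe sets passed, beside 32.6% of all tested probe sets, so the members' share was close to that of the array as a whole. Tapbp 100154_at was higher by 1.40 on the log2 scale (SE 0.22, adjusted p = 0.000477) and Tapbp 102689_at by 1.39 (SE 0.31, adjusted p = 0.00463). H2-D1 101886_f_at was higher by 1.40 (SE 0.22, adjusted p = 0.000462) and H2-D1 97540_f_at by 0.73 (SE 0.25, adjusted p = 0.0418). B2m fell by 0.89 (SE 0.20, adjusted p = 0.00503). The third H2-D1 probe set, 97541_f_at, was too dim for this fit and went the other way. With the 20th percentile filter it differed by -2.32 in males (limma adjusted p = 0.0419), and its reading in null replicate 2 lay under the floor. Of 14 members tested with that filter, 3 were called higher in males and 2 lower. With no signal filter 3 were higher and 1 lower.

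As plain ratios of mean intensity, male null over male wild-type brains came to 2.64 and 2.58 for those Tapbp probe sets, 2.62 for H2-D1 101886_f_at and 0.53 for B2m. The male null arrays exceeded all the other 9 arrays for 3 member probe sets and lay under all 9 for 1, beside 20.7% of tested probe sets above and 16.5% below. The other 7 tested members in males ranged over -0.53 for Tap2 to 0.87 for H2-K1 97700_at, with Cd74 at 0.14 and Tap1 at 0.15. The balance in males also depends on the scaling. Calls over all probe sets were 1330 higher and 1103 lower here, 1119 and 1425 with quantile normalization, and 765 and 2004 with median centring. Under each of those normalizations 4 of 12 members passed, 3 higher and 1 lower. Within B4 numbers in males 30.3% of all tested probe sets passed. Both Tapbp probe sets, H2-D1 101886_f_at and B2m passed there and H2-D1 97540_f_at did not (0.50, adjusted p = 0.154). Leaving out null replicate 1 left 2 members, Tapbp 100154_at and H2-D1 101886_f_at, with B2m at -0.75 (adjusted p = 0.0725) and 1339 of all probe sets called in place of 2433, and the Gapdh ratio as a covariate left 0 members and 0 of all probe sets.

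The difference between the sexes was tested directly, as null minus wild-type in females less the same in males. Of 12 members, 4 passed, beside 15.9% of all tested probe sets. H2-D1 101886_f_at gave -1.81 (SE 0.32, adjusted p = 0.00379), Tapbp 100154_at -1.36 (SE 0.32, adjusted p = 0.0135), H2-D1 97540_f_at -1.31 (SE 0.37, adjusted p = 0.0298) and B2m 1.03 (SE 0.29, adjusted p = 0.0326). Tapbp 102689_at, at -1.30 with a wider error (SE 0.45, adjusted p = 0.0686), did not pass.

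With only 2 male null brains, sex and whatever else set those arrays apart cannot be told apart. Leaving out wild-type replicate 5, null replicate 2 or null replicate 1 left 1, 1 and 2 of the 4 calls, while calls over all 7453 probe sets dropped to 499, 461 and 650 in place of 1187, and B4 numbers alone left 1 (H2-D1 101886_f_at at -1.64, adjusted p = 0.0181, beside 8.64% of all). With the Gapdh ratio as a covariate 0 members and 0 of all 7453 probe sets were called, although the members' median came to -1.24 in place of -0.70, with wider errors such as 0.75 in place of 0.32 for H2-D1 101886_f_at.

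**Figure D2:**
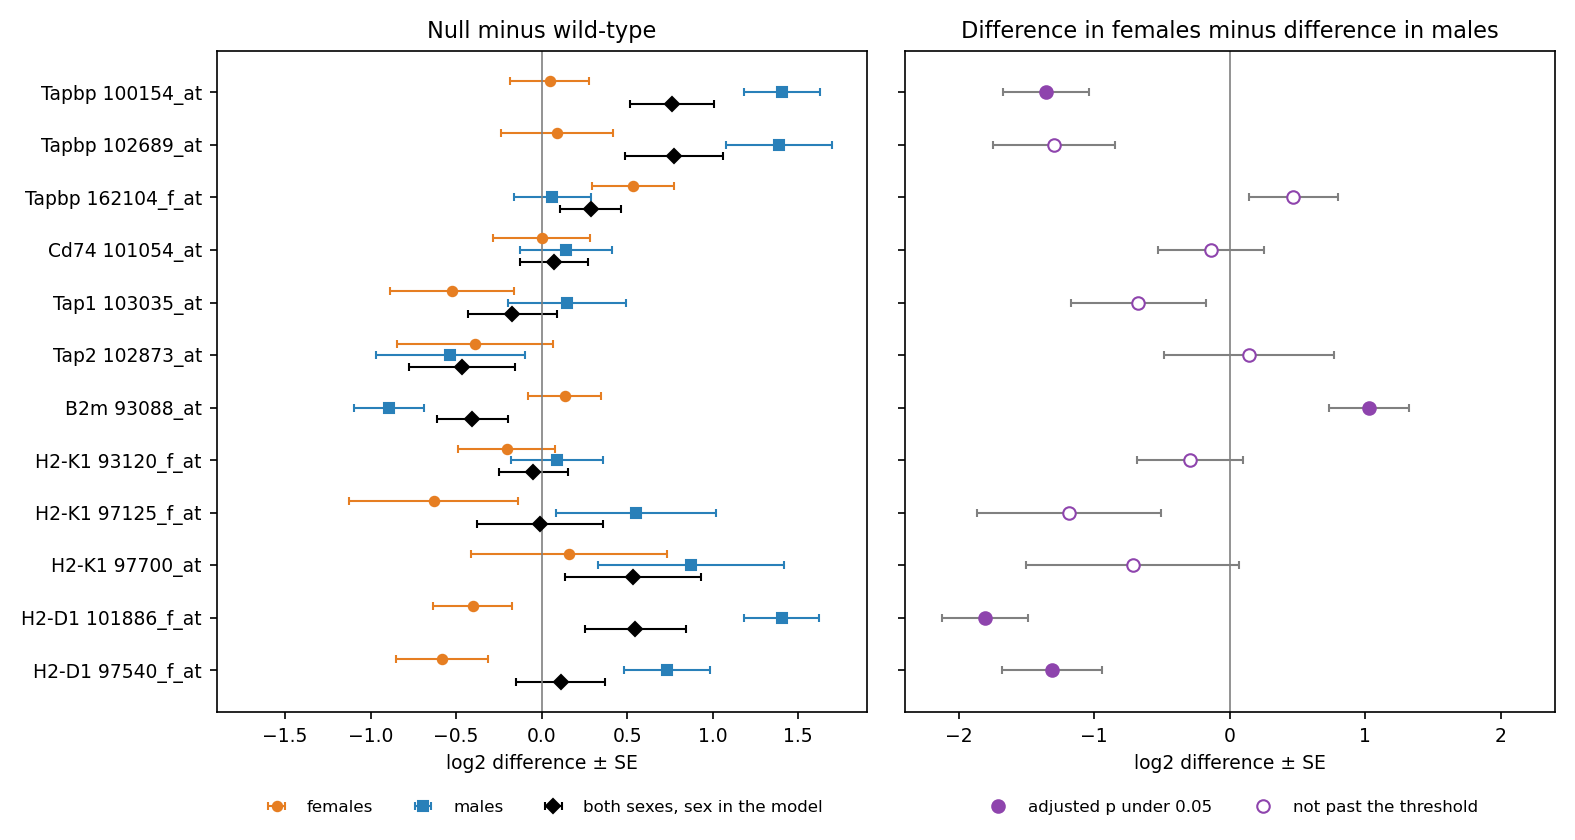
Log2 differences ± SE of the 12 tested member probe sets, null minus wild-type in females, in males and in both (left), and the difference in females minus that in males (right), where filled circles passed the adjusted p of 0.05. Differences in females are 0.05 for Tapbp 100154_at and 0.13 for B2m, where those in males are 1.40 and -0.89.

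Between the sexes, with genotype in the model, limma called 0 of 12 members and 0% of all tested probe sets. Tapbp 102689_at (female minus male -0.73, SE 0.29, adjusted p = 0.350) and H2-K1 97125_f_at (-0.93, SE 0.37, adjusted p = 0.356) had an unadjusted p under 0.05, beside 12.4% of all tested probe sets. No tested member's female and male arrays fell into ranges that do not overlap, as they did with females higher for 0.201% of tested probe sets and with females lower for 0.201%. H2-K1 97125_f_at reached -1.497 (adjusted p = 0.0276) when wild-type replicate 5, the brightest female array for it, was left out. Over all 7453 probe sets 30 were then called for sex, in place of 0. The members' median sex difference was -0.20, beside -0.01 over all tested probe sets.

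Probe sets of 1 gene did not always read alike. In the male null brains the log2 ratio of Tapbp 100154_at to Tapbp 162104_f_at was 1.08 and 1.09, while in the other 9 brains it ran from -0.60 to 0.57. Over all null brains this ratio averaged 0.44 ± 0.60, against -0.0027 ± 0.45 in wild-type brains (SD, n = 5 and 6), and the exact permutation p for the difference was 0.182. Of 7 such pairs within Tapbp, H2-K1 and H2-D1, none differed between genotypes after adjustment, the lowest adjusted p being 0.356 in the exact permutation test. These pairs were compared after their values had been seen.

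**Figure D3:**
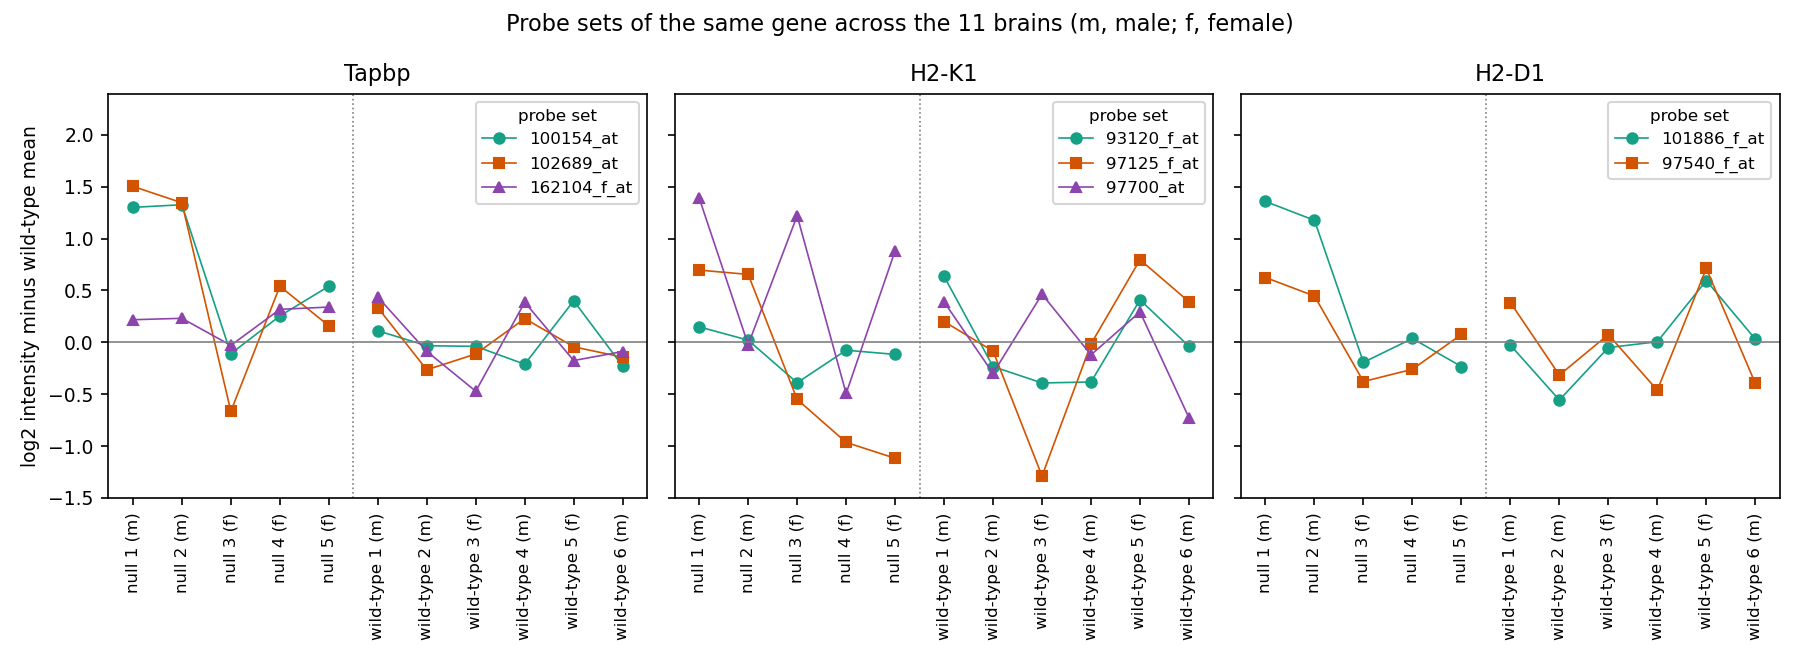
Log2 intensity minus the wild-type mean for the tested probe sets of Tapbp, H2-K1 and H2-D1 in each of the 11 brains, null left of wild-type. In the male null brains Tapbp 100154_at and 102689_at lie over 1 unit up while 162104_f_at stays near 0.

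Partner genes of both pathways were looked at as lists, each gene by its brightest tested probe set. In the genotype comparison limma called 0 genes in each of the 5 lists. The peptide loading list covers chaperones and peptidases of the endoplasmic reticulum and cytosol, and 7 of its 12 genes were tested. Their median was -0.11, and values ran from -0.25 for the peptidase Tpp2 to 0.20 for the chaperone Canx. At an unadjusted p under 0.05 there were 0 of 7, beside 23.1% of all tested probe sets. In males Sec61b, a subunit of the translocation channel, fell by 0.76 and was the 1 call of 7, beside 32.6% of all tested probe sets, and without the male null arrays it was at 0.61. The chaperone Calr, part of the loading complex, was too dim to test at 1.66 ± 1.05 in null and 11.05 ± 7.94 in wild-type brains (SD, n = 5 and 6).

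The proteasome list, which cuts the peptides, had 6 of 9 genes tested and a median of 0.31. At an unadjusted p under 0.05, 3 genes of the list were higher, beside 13.4% of all tested probe sets. Its largest values were 0.77 for Psmb5, a standard catalytic subunit, and 0.61 for Psme1, a subunit of the interferon-inducible activator. The inducible subunits Psmb8 and Psmb9, which replace standard ones under interferon, were too dim to test, with Psmb8 at 35.02 ± 5.39 in null and 19.95 ± 8.72 in wild-type brains. Psmb10, also an inducible subunit, was tested and differed by 0.20 (limma adjusted p = 0.372). Without the male null arrays the list's median was 0.04, and in males 3 of 6 rose and 1 fell, beside 1330 higher and 1103 lower of all 7453 tested probe sets.

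Among 20 other class I genes 7 were tested, with a median of 0.15, or -0.15 without the male null arrays. At an unadjusted p under 0.05 there were 0 of 7, beside 23.1% of all tested probe sets. H2-Q4, a class I heavy chain of the Q region, differed by -1.13 in females and by 2.03 in males, and of these only the difference in males was called. It was the list's 1 call of 7 in males, beside 32.6% of all tested probe sets. The name of its probe set ends in _f_at, so related class I sequences may be read with it. Its values ran from 9.2 to 88.5 in null brains and from 6.9 to 46.9 in wild-type brains. H2-M3, which presents formylated peptides, was at -0.36 over both sexes and Hfe, an iron regulator of the class I fold, at 0.15.

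The class II list gives the surroundings of Cd74. Of its 18 genes 6 were tested, since the class II chains were dim. H2-Aa, an α chain, read 6.42 ± 2.04 in null and 4.43 ± 0.622 in wild-type brains, and H2-Ab1, its β partner, 11.1 ± 6.13 in null and 8.38 ± 2.03 in wild-type brains (SD, n = 5 and 6). The tested genes were mostly endosomal proteases, and 3 genes of the list rose and 2 fell in males, beside 32.6% of all tested probe sets called, with 0 called without the male null arrays. Ctsd, cathepsin D, was higher in males by 1.61 (-0.13 without the male null arrays) and Ctsb, cathepsin B, by 0.51 (-0.05 without them), while Ctss, the cathepsin that trims the invariant chain, fell by 0.46 and Ctsl, cathepsin L, by 0.54. Over both sexes 1 gene was higher and 2 lower at an unadjusted p under 0.05, beside 13.4% and 9.69% of all tested probe sets. The list's median was 0.22, or -0.14 without the male null arrays.

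Of 32 interferon pathway and response genes 18 were tested, with a median of 0.05, or 0.24 without the male null arrays. At an unadjusted p under 0.05, 3 of the 18 were higher, beside 13.4% of all tested probe sets. Ifngr2, a chain of the interferon gamma receptor, had the highest difference at 0.995 and Isg15, a ubiquitin-like interferon target, the lowest at -0.57. Irf1, an activator of class I promoters, was at 0.45 and Socs1, an inhibitor of the pathway, at 0.26. In males Stat3 rose by 0.68, and Irf8 and Irf9, both partners in interferon-driven transcription, fell by 0.78 and 0.79, where without the male null arrays the values were -0.07, 0.30 and 0.29 and 0 were called. Their 3 calls of 18 compare with 32.6% of all tested probe sets.

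**Figure D4:**
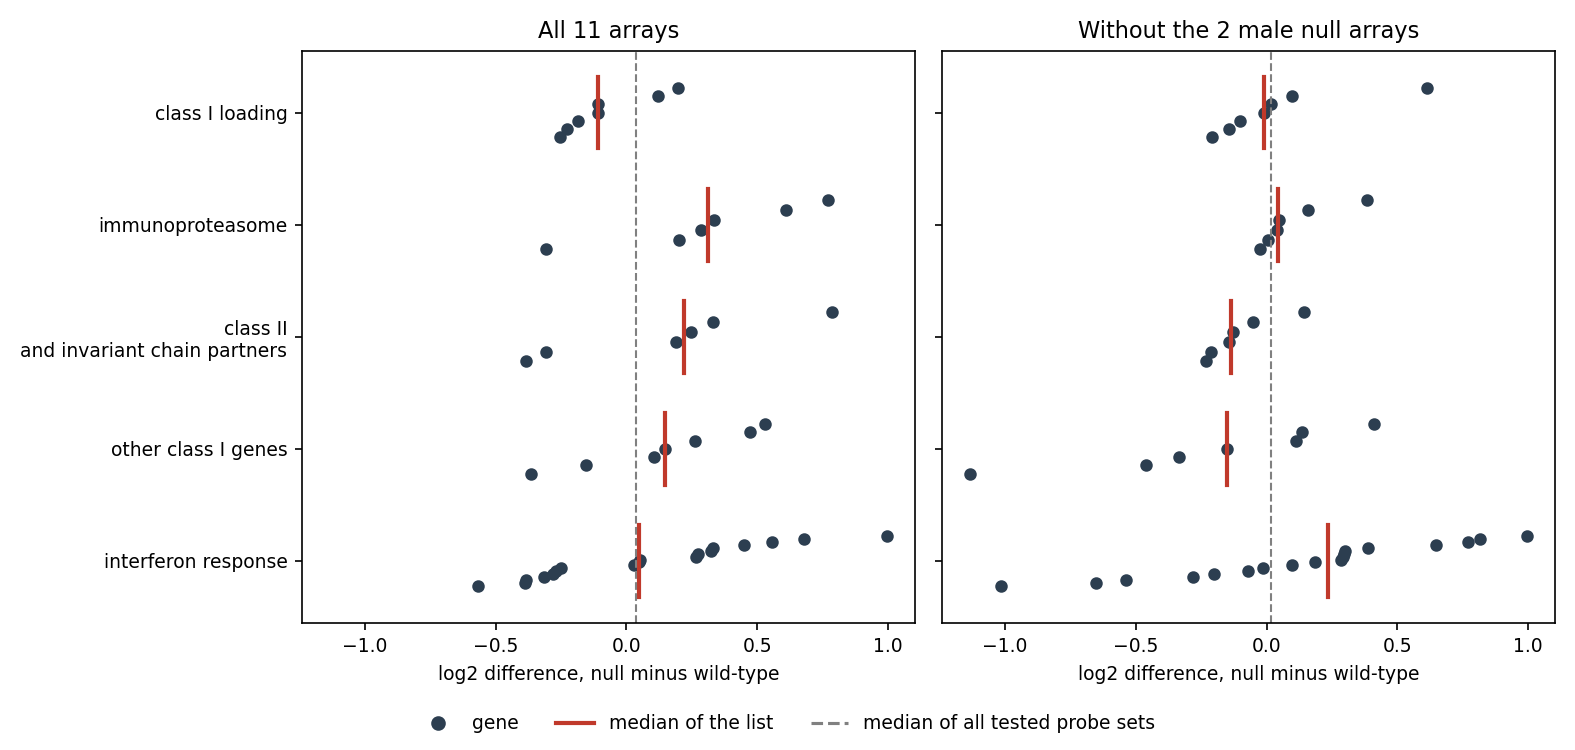
Log2 difference, null minus wild-type, of each tested gene of the 5 lists with all 11 arrays (left) and without the 2 male null arrays (right), with red bars for the list medians and a dashed line for the median of all tested probe sets. The proteasome median is 0.31 at left and 0.04 at right.

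Whole brain mixes many cell types, and in such bulk RNA fewer cells of a type and less RNA per cell cannot be told apart. As a check of the labelled tissue, 8 of 8 neuronal, 5 of 5 astrocyte and 5 of 6 oligodendrocyte markers on the array were bright enough to test. Summed over 8 neuronal markers, the male null arrays read 12279 and 11838, within a null range of 10957 to 12279 and beside a wild-type range of 9574 to 11954, and 6 of 8 tested neuronal markers passed as higher in males, beside 1330 of all 7453. Without the male null arrays 0 of 8 passed and their median was -0.07. The brightest of these markers, Snap25 and Thy1, made up the largest parts of the sum. They differed by -0.31 and -0.14 in males and did not pass.

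Microglia were named above, with border macrophages, for class II. The sum over 12 microglial markers was 1908 to 2780 in null brains, highest in male null replicate 1, and 1990 to 2387 in wild-type brains, and 4 of 9 tested microglial markers rose and 2 fell in males, beside 1330 higher and 1103 lower of all 7453, with 0 called without the male null arrays. Endothelial markers, of cells rich in class I, summed to 898 to 1193 in null brains and 1037 to 1589 in wild-type brains over 9 genes. Wild-type arrays with LT numbers read 1509, 1589 and 1459, and those with B4 numbers 1249, 1037 and 1134. Of the 9 endothelial markers 0 rose and 2 fell in males, beside 1330 higher and 1103 lower of all 7453. Sums over 11 blood leukocyte markers were 269 to 379 in null and 271 to 403 in wild-type brains, with only 3 of 11 bright enough to test and Cd3g and Ncf4 at the floor on most arrays. The sum over 3 erythroid markers, nearly all of it Hba-a1, was lowest in the male null arrays, at 2188 and 2206, where the other 9 arrays began at 2365. In males Hba-a1 differed by -0.84 (limma adjusted p = 0.0613) and Alas2 by 0.64, and neither passed. The sum over 3 choroid plexus markers, most of it Ttr, was also lowest in the male null arrays, at 922 and 664. The others ran from 982 to 1762. Of the 3 genes, 2 fell in males (Ttr by 0.94 and Kl by 0.66), beside 1103 of 7453 tested probe sets lower. Folr1 went the other way, higher in males by 1.21, and did not pass (limma adjusted p = 0.124). Over 5 astrocyte markers the male null arrays read 2832 and 2542, and the others 2820 to 3524. No marker of these lists was listed at 0, and the part of any cell type in the members' values was not tested.

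Across the 9 brains other than the male null pair, the members did not run as a block. Of the 21 pairs of member genes, by the brightest tested probe set of each, 11 had a Pearson r above 0, the range was -0.40 to 0.76 and the median 0.11. The closest pairs by Pearson r were Tap2 with B2m (r = 0.76) and H2-K1 with H2-D1 (r = 0.76). By ranks (Spearman rho) these pairs had 0.77 and 0.48, and Tapbp with H2-D1 was closest at 0.83. H2-K1 and H2-D1 are near copies that the array can confuse, and whether that has a part in their r was not tested. B2m and H2-D1, light and heavy chain of the same molecule, were the farthest apart at -0.40.

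The genes whose profile was most like a member's over those 9 brains were not other antigen presentation genes. For Tapbp they were Apex1 (r = 0.94), Zkscan14 (0.93) and Timm44 (0.92), and for Cd74 they were Slc19a1, Actl6a and Kcnk7 (0.94, 0.94 and 0.90). Tap1 was most like Cdkn2c, Grhpr and Pnkd (0.95, 0.92 and 0.91), and Tap2 most like Ntrk3, Plekho1 and F7 (0.94, 0.94 and 0.92). B2m was nearest to Gng11, Anp32b and Lss (0.90, 0.89 and 0.88). H2-K1 was nearest to Pdcd4, BC005537 and Mef2c (0.98, 0.94 and 0.92), and H2-D1 to Pbx3, by 2 probe sets, and Mef2c (0.93, 0.92 and 0.90). These are the highest of 6764 to 6766 correlations for each member and share the arrays' labelling and scaling. Without the 2 arrays farthest from the member's median, r ran from 0.05 to 0.91, so several rest on those arrays.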

How the data were processed

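The deposited intensities (linear scale, 1 for each probe set on each array) were made by the authors with MAS5, per the submitters' processing notes; its version was not given in the sources used here. Per the labels' protocols, total RNA was labelled with biotin and each of 11 brains went on 1 array. Intensities were floored at the 10th percentile of the table (3.1), put on a log2 scale, and probe sets with a mean log2 under the 40th percentile, as well as 66 controls, were left out, which left 7453. Arrays were used as scaled. At the floor lay 7.76% to 11.9% of each array's values. The model was limma 3.58.1 (lmFit, eBayes with trend) in R 4.3.3, with Benjamini-Hochberg adjustment, and was tested on simulated data. The genotype contrast was null minus wild-type, adjusted for sex, the sex contrast female minus male, adjusted for genotype, and the interaction model gave the differences within each sex. Of all probe sets 10855 are annotated to 1 gene, 396 to several and 1237 to none.

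Members and lists were chosen with earlier results of these data known. Named genes were all member probe sets, genes of the 5 pathway lists, and the 3 probe sets most like each member's brightest tested one. The labels say that arrays are of separate mice, so p-values measure the spread between mice, and the number of arrays limits the precision. Alternatives were other normalizations, floors and filters, no trend, other covariates, number letters as block or B4 alone, and leaving out arrays.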

Additional observations from a re-analysis of the deposited data

Results flagged for a closer look

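For 4 member probe sets the genotype difference in females differed from that in males by limma's interaction test. On subtracting the difference in males, that in females was -1.36 for Tapbp 100154_at, 1.03 for B2m 93088_at, -1.81 for H2-D1 101886_f_at and -1.31 for H2-D1 97540_f_at on the log2 scale. Each rests on the 2 male null brains, whose Gapdh 3' to 5' ratios of 0.859 and 0.798 lie below those of the other 9 brains (2.19 to 5.92). The part of that ratio was not tested. A check for single arrays far from the rest of their genotype, over 28 groups of member values, found 0, where chance alone gives about 1 in 20. It used the gap between the extreme array and the next, so 2 arrays that deviate together can hide each other. The 0 therefore says nothing of the male null pair.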

How the results depend on the processing

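Over 24 settings for genotype, 24 for sex and 22 for the interaction, the 12 tested members kept sign and side of the threshold in 261, 261 and 225 cases, turned sign in 25, 26 and 12, gained a call in 2, 1 and 2, and lost a call in 25 interaction cases. The cause of the exceptions was not tested. Quantile normalization and median centring moved the median genotype difference of all tested probe sets to -0.04 and -0.15, from 0.03 as reported. Called members over leave-one-out settings numbered 0 to 2 for genotype, 0 to 1 for sex and 1 to 4 for the interaction. The interaction count of 4 became 2 without a signal filter, 2 without trend, 1 within B4 numbers and 0 with the Gapdh ratio as covariate, where all probe sets called numbered 930 of 12422, then 948, 644 and 0 of 7453, in place of 1187. With that ratio the members' median interaction was -1.24, in place of -0.70. The 1 sex call came without wild-type replicate 5, where 30 of all 7453 probe sets were called for sex in place of 0. The count of all probe sets called for genotype, 2 as reported, was 1 with quantile normalization, median centring, the 20th percentile filter or no covariate, 0 with no filter, age, the Gapdh ratio or without the 2 male null arrays, 26 within B4 numbers, and 1 to 877 in leave-one-out settings (195 without wild-type replicate 3, 877 without wild-type replicate 5, 9 without null replicate 5).

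Signs turned for genotype as follows. With the Gapdh ratio, B2m was 0.24, H2-D1 101886_f_at -0.58, H2-D1 97540_f_at -0.66 and Tapbp 100154_at -0.042. With age, Cd74 was -0.15, H2-D1 97540_f_at -0.23 and H2-K1 97125_f_at 0.19. Cd74 was -0.11 with median centring and with quantile normalization, and H2-D1 97540_f_at -0.069 with median centring. H2-K1 97125_f_at was 0.38 with the number letters as block and 0.53 within B4 numbers, where H2-K1 93120_f_at was 0.018. Without the male null arrays, B2m was 0.13, H2-D1 101886_f_at -0.40 and H2-D1 97540_f_at -0.58. Leaving out single mice gave -0.091 to 0.37 for H2-D1 97540_f_at, -0.16 to 0.13 for H2-K1 93120_f_at and -0.25 to 0.50 for H2-K1 97125_f_at.

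For the interaction, the Gapdh ratio gave H2-K1 93120_f_at 0.18 and Tapbp 162104_f_at -0.28. Cd74 was 0.077 with median centring, 0.072 with quantile normalization and 0.075 within B4 numbers, where H2-K1 93120_f_at was 0.31. Leaving out single mice gave -0.18 to 0.50 for Tap2, -0.30 to 0.0069 for Cd74 and -0.69 to 0.11 for H2-K1 93120_f_at.

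For sex, the Gapdh ratio gave B2m -0.23, H2-D1 101886_f_at 0.12, H2-D1 97540_f_at 0.35, H2-K1 93120_f_at 0.00037 and Tapbp 100154_at 0.029. Age gave B2m -0.074, Cd74 0.011, H2-D1 97540_f_at 0.20 and H2-K1 93120_f_at 0.047. Median centring gave Cd74 0.044, H2-D1 97540_f_at 0.15 and H2-K1 93120_f_at 0.061, and quantile normalization Cd74 0.021 and H2-D1 97540_f_at 0.012. B2m was -0.013 without a covariate. Without the male null arrays, B2m was -0.39, H2-D1 101886_f_at 0.41, H2-D1 97540_f_at 0.59, H2-K1 93120_f_at 0.013 and Tapbp 100154_at 0.27. Leaving out single mice gave -0.071 to 0.27 for B2m and -0.33 to 0.15 for H2-D1 97540_f_at.

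No paired analysis was possible because the replicate numbers name the mice in accession order and pair none of them. Precision is limited by 5 null and 6 wild-type mice, with 2 null males and 2 wild-type females.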
